A study of Mus musculus with 6 samples.

Results

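Transcripts of AP-1 subunits and of immediate early genes were followed in lung buds of mouse embryos at stage E11.5. The set held 10 genes, listed by name: the Jun family (Jun, Junb, Jund), the Fos family (Fos, Fosb, Fosl1, Fosl2), the related factor Atf3, and the immediate early genes Egr1 and Ier3. Each had 1 probe set of its own on the array, so all 10 were measured, among 19938 genes in all. The 3 DKO samples had the genotype Shhcre:Hdac1fl/fl; Hdac2 fl/fl, and the 3 control samples carried Shhcre alone. The Shhcre allele was therefore present in both groups. It expresses Cre recombinase from the Sonic hedgehog locus, which in the lung bud is active in the epithelium, while RNA came from whole buds with their mesenchyme, vessels and blood. All 6 samples had the strain label C57BL/6 and 129X1,129S1, and the labels leave unsaid how many embryos went into each. The p-values therefore measure the spread between these samples, which may be partly technical. The comparison asks which genes are regulated by the histone deacetylases Hdac1 and Hdac2 during lung development.

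AP-1 is a family of dimeric transcription factors. Jun proteins pair with each other or with Fos or ATF proteins through a leucine zipper and bind short palindromic DNA elements, whereas Fos proteins need a Jun partner to bind. Fos, Fosb, Egr1, Ier3 and, to varying degrees, the Jun genes are transcribed within minutes of a growth factor or stress signal without new protein synthesis, through kinases such as ERK, JNK and p38, and the physical handling of tissue can also induce them.

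Of the 10 genes, 1 passed the threshold (an adjusted p under 0.05 from limma, with Benjamini-Hochberg adjustment over all 19938 genes). It was Jun, which fell. Over all genes 481 passed, or 2.41%, of which 206 were higher (1.03%) and 275 lower (1.38%) in DKO. Without control 1, 2 and 3 in turn the count over all genes was 215, 197 and 215, without DKO 2 it was 811 and without DKO 3 it was 317. In each of these fits the same listed gene, Jun, was the only one past the threshold. Before adjustment, 2 of the 10 genes (Jun and Ier3) had p under 0.05, as did 12.8% of all genes. These 2 were also the only listed genes without overlap between the values of DKO and control, which held for 18.8% of all genes. Changes are given as DKO minus control on the log2 scale, with the standard error (SE) of limma, and intervals are 95% confidence intervals.

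Jun encodes c-Jun, the best studied AP-1 subunit, whose activity is raised by the JNK kinases. The log2 level of Jun was 9.51, 9.49 and 9.54 in DKO 1 to 3, against 10.14, 10.10 and 9.97 in controls 1 to 3. All DKO values lay below all control values, and the DKO samples were close together. The means were 9.51 ± 0.03 in DKO and 10.07 ± 0.09 in control (SD, n = 3 each). The change was -0.56 (SE 0.06, interval -0.69 to -0.42, limma adjusted p = 0.00193), which is 1.47-fold lower. Among all genes this was the 80th largest fall and the 58th smallest p-value. Jun stayed past the threshold in all 15 alternative analyses, with changes of -0.61 to -0.52 and adjusted p-values of 0.000146 to 0.0228.

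**Figure D1:**
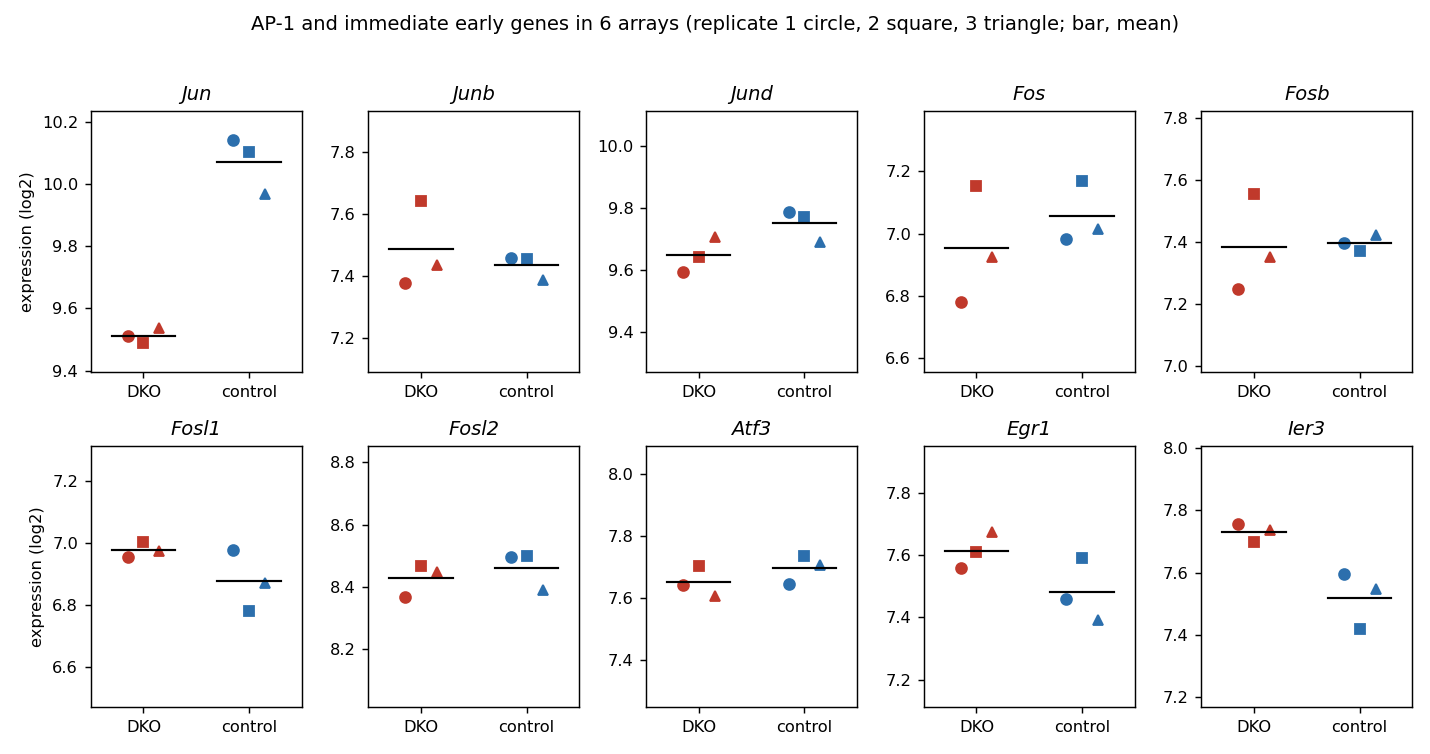
Expression (log2) of the 10 listed genes in each sample, with DKO on the left and control on the right of each panel, a marker shape per replicate number and a bar at the group mean. All panels span the same number of log2 units. Jun and Ier3 are the panels without overlap, with Jun at 9.49 to 9.54 in DKO and 9.97 to 10.14 in control.

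Each of the other 9 genes had an interval that stayed within -0.32 to 0.34. The band holding the middle 95% of changes over all genes ran from -0.24 to 0.23, and Jun was the single listed gene outside it. Over the 10 genes the median change was -0.02, with 4 values above and 6 below 0, against a median of 0.00 over all genes. By mean level, Fosl1 and Fos lay at percentiles 28.1 and 29.4 of all genes. Fosb, Junb, Egr1, Ier3 and Atf3 lay at 36.6 to 42.0, and Fosl2, Jund and Jun at 54.5 to 78.2. Without detection calls, the signal of the dimmer genes could not be told from background, which limits what their small changes show.

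**Figure D2:**
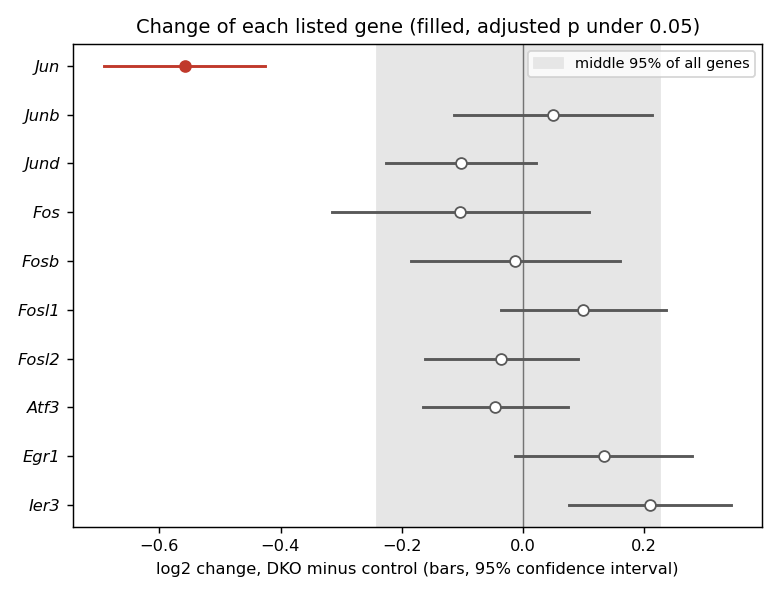
Log2 change (DKO minus control) of each listed gene with its 95% confidence interval. The filled point, Jun at -0.56, passed the threshold, and the grey band holds the middle 95% of changes over all genes, -0.24 to 0.23.

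The stretches directly upstream of the annotated start of the 3 Jun family genes are shown because Jun is known to regulate its own gene through such elements, and because Jun passed the threshold whereas Junb and Jund did not. The sequences are from RefSeq (GRCm38.p6), 250 bases each, written 5′ to 3′ along the gene. Jun is on the minus strand at chr4:95052223-95052472, Junb on the minus strand at chr8:84978749-84978998 and Jund on the plus strand at chr8:70697489-70697738. Capitals mark every match to the motifs described after the sequences.
Jun: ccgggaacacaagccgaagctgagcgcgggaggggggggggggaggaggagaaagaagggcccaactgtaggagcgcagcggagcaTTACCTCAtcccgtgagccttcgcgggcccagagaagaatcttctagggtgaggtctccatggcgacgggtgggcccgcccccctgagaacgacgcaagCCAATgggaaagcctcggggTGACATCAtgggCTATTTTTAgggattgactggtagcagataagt
Junb: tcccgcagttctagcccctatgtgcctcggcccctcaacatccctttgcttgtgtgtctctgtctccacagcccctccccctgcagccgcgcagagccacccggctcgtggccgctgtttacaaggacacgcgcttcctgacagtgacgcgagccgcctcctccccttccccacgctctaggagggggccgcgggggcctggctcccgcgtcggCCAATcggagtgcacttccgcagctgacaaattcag
Jund: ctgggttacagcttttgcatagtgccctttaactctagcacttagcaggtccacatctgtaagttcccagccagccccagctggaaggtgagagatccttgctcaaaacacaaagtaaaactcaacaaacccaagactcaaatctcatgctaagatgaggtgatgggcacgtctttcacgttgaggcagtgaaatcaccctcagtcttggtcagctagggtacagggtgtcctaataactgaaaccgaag
The motifs were searched on both strands. They were the AP-1 element TGANTCA, the cAMP response element TGACGTCA, the variants TGACATCA and TTACCTCA known from the Jun promoter, the MEF2 element CTATTTTTA also known from it, the CCAAT box, the core promoter element TATAAA, the EGR element GCGNGGGCG and the CArG box bound by SRF. Apart from the CArG box, which can hold TATAAA or CCAAT, no motif is contained in another, and no matches overlapped in the sequences shown. TGACATCA, TTACCTCA and CTATTTTTA were chosen because they are known from Jun, so finding them there, or there alone among the listed genes, is no result. Jun held TTACCTCA starting 164 bases, CCAAT starting 65 bases, TGACATCA starting 45 bases and CTATTTTTA starting 33 bases before the start. Junb held CCAAT, starting 36 bases before its start, and Jund held none of the 9 motifs in this window. Of 32851 promoter windows of the same length, 2.93% held TGACATCA, 0.728% TTACCTCA, 0.454% CTATTTTTA and 33.8% CCAAT. Promoter windows were found for 8 of the 10 genes, all but Fosl1 and Egr1. Among these 8, TGACATCA, TTACCTCA and CTATTTTTA occurred in Jun alone and CCAAT in Jun, Junb and Ier3. TATAAA was in Fos (12.4% of all windows) and GCGNGGGCG in Fosb and Fosl2 (4.70% of all windows). TGANTCA (6.75% of all windows), TGACGTCA (1.55%) and the CArG box (1.47%) were in none of the 8 windows. These matches describe letters in a short window and not bound sites, and their part in the change of Jun was not tested.

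Junb and Jund, the other two Jun family genes, did not pass. Junb, whose product can oppose c-Jun, had log2 levels of 7.38, 7.64 and 7.44 in DKO, against 7.46, 7.46 and 7.39 in control. DKO 2 alone lay above the controls. The change of Junb was 0.05 (SE 0.07, interval -0.11 to 0.21, adjusted p = 0.862). Without DKO 2 it was -0.03. Jund, the most broadly expressed member of the family and the least dependent on stimuli, had 9.59, 9.64 and 9.71 in DKO, against 9.79, 9.77 and 9.69 in control. The groups overlapped through DKO 3 and control 3. The change of Jund was -0.10 (SE 0.05, interval -0.23 to 0.02, adjusted p = 0.517).

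As a description, the log2 ratio of Jun to each other listed gene was taken within each array. The ratios share the values of Jun, whose fall was already called, and are no further support for it. For all 9 ratios the 3 DKO values lay below the 3 control values, with differences (DKO minus control) of -0.77 to -0.46. Jun relative to Jund was -0.08, -0.16 and -0.17 in DKO 1 to 3, against 0.35, 0.33 and 0.28 in controls 1 to 3. That is a difference of -0.46, with SDs of 0.05 and 0.04. Jun relative to Junb differed by -0.61, and the SD of this ratio was 0.16 in DKO and 0.05 in control. No test is given for the ratios, since an exact permutation test of 3 samples against 3 cannot go below p = 0.1.

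**Figure D3:**
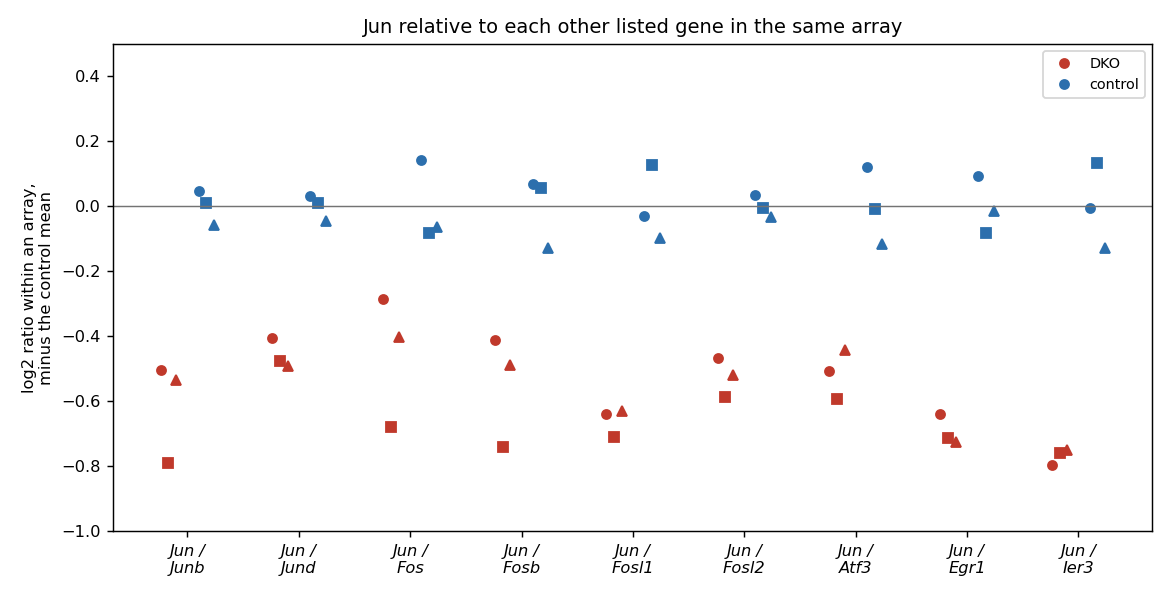
Log2 ratio of Jun to each other listed gene within the same array, minus the mean of that ratio in the controls. DKO samples stand left of controls and shapes give the replicate number. All DKO points lie below all control points, with mean differences of -0.46 (Jun to Fos and Jun to Jund) to -0.77 (Jun to Ier3).

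None of the 4 Fos family genes passed, against 2.41% of all genes. Fos encodes c-Fos, the classical immediate early partner of c-Jun. Its log2 level was 6.78, 7.15 and 6.93 in DKO, against 6.98, 7.17 and 7.02 in control. The DKO samples overlapped the controls and reached below them. The change of Fos was -0.10 (SE 0.09, interval -0.32 to 0.11, adjusted p = 0.760), and its interval was the widest among the 10 genes. Fosb, which like Fos is induced rapidly and transiently, had 7.25, 7.55 and 7.35 in DKO and 7.40, 7.37 and 7.42 in control. Again DKO 2 was above all controls, and the other DKO samples were below them. The change of Fosb was -0.01 (SE 0.08, interval -0.18 to 0.16, adjusted p = 0.972).

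Fosl1 and Fosl2 encode Fra-1 and Fra-2, Fos relatives that lack the strong activation domain of c-Fos and accumulate later after a stimulus. Fosl1 had 6.96, 7.00 and 6.98 in DKO, against 6.98, 6.78 and 6.87 in control. The DKO values were tightly grouped, with DKO 2 just above the highest control and the others within the control range. The change of Fosl1 was 0.10 (SE 0.06, interval -0.04 to 0.24, adjusted p = 0.571). For Fosl2 the levels were 8.37, 8.47 and 8.45 in DKO and 8.50, 8.50 and 8.39 in control, with overlap. Its change was -0.03 (SE 0.06, interval -0.16 to 0.09, adjusted p = 0.882).

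Atf3, a stress-induced bZIP factor that dimerises with Jun proteins, had 7.64, 7.71 and 7.61 in DKO and 7.65, 7.73 and 7.71 in control. The groups overlapped, and the change of -0.04 (SE 0.05, interval -0.16 to 0.07, adjusted p = 0.826) was among the smaller ones. Egr1 encodes a zinc finger factor induced through ERK and SRF. Its level was 7.56, 7.61 and 7.67 in DKO, against 7.46, 7.59 and 7.39 in control. Control 2 lay within the DKO range and the other two controls below it. The change of Egr1 was 0.13 (SE 0.06, interval -0.01 to 0.28, adjusted p = 0.447).

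Ier3 encodes a small protein that modulates cell survival and ERK signalling. Its log2 level was 7.76, 7.70 and 7.74 in DKO, against 7.60, 7.42 and 7.55 in control. All DKO values lay above all control values. The change of Ier3 was 0.21 (SE 0.06, interval 0.08 to 0.34), which did not pass (adjusted p = 0.130, unadjusted p = 0.00607). It passed in 1 of 15 alternative analyses, the one with array weights (adjusted p = 0.0210), and the adjusted p-values over these analyses reached 0.395.

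Within the DKO group DKO 2 held the highest value for 6 of the 10 genes: Junb, Fos, Fosb, Fosl1, Fosl2 and Atf3. DKO 2 was also the highest DKO array for 50.5% of all genes. DKO 1 was the lowest DKO array for 7 of the 10, and for 48.0% of all genes. Over all genes the SD around the group mean was 0.0867, 0.105 and 0.0705 in DKO 1 to 3 and 0.0605, 0.0645 and 0.0596 in controls 1 to 3. Without DKO 2 the change of Fos was -0.20 and that of Fosb -0.10, and neither passed (adjusted p = 0.175 and 0.400). Without it, Jun stood at -0.55 (adjusted p = 0.00200). The SD of the DKO values exceeded that of the control values for 5 of the 10 genes, against 67.8% of all genes.

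**Figure D4:**
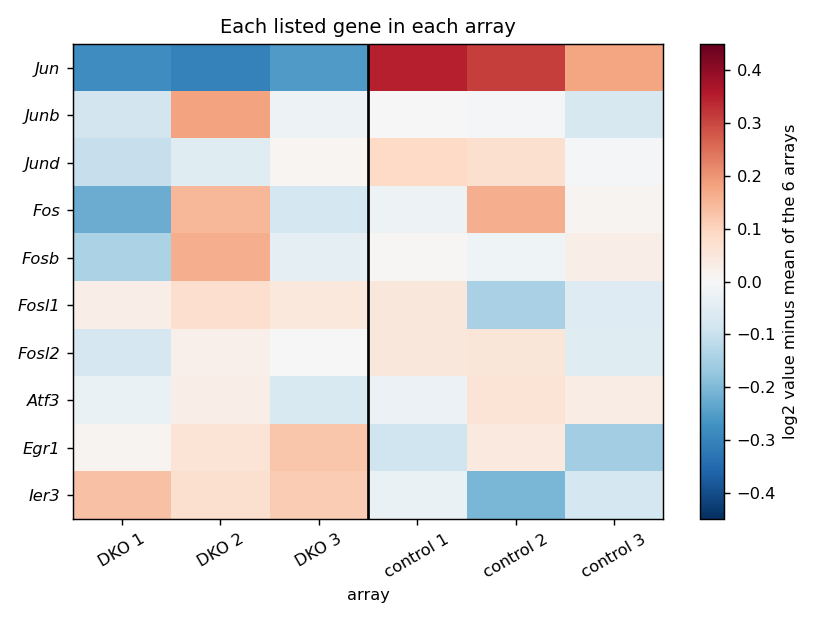
Log2 value of each listed gene in each array minus its mean over the 6 arrays, with DKO arrays left of the line. Jun is low in all 3 DKO arrays, whereas Junb, Fos and Fosb are highest of the DKO arrays in DKO 2 and lowest in DKO 1.

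The listed genes with the widest range over the 6 arrays were Jun (0.65) and Fos (0.39). The genes with the most similar profile were sought by the root mean square (RMS) difference between values centred on the mean of the 6 arrays. For Jun these were Gprc5c (RMS difference 0.05), Cuedc1 (0.05), Rnf43 (0.06) and Ociad2 (0.06), against a median of 0.29 over genes. Their changes were -0.59 for Gprc5c, -0.50 for Cuedc1, -0.64 for Rnf43 and -0.60 for Ociad2. For Fos the most similar were Apoa5, Fam3b, Tnfrsf4 and Tesmin, with RMS differences of 0.02 to 0.03 against a median of 0.14. All 8 were selected for their profile over the same 6 arrays, so their likeness in level and change is no further result.

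Samples of whole buds mix cell types, so fewer cells of a type and less RNA per cell cannot be told apart. The marker counts that follow stand beside 1.38% of all genes called lower and 1.03% called higher in DKO, or 2.41% in either direction. Of 15 lung epithelium markers 9 fell and 0 rose, with changes from -2.37 for the surfactant gene Sftpc to 0.08 for the keratin gene Krt19 and a median of -0.50. The mean log2 level over these 15 markers was 9.16 to 9.28 in DKO arrays and 9.70 to 9.83 in control arrays. Of 7 smooth muscle markers 6 fell and 1 rose, with mean levels of 9.34 to 9.59 in DKO and 9.78 to 9.91 in control. The count of 6 became 0 without control 2 or control 3, 2 without control 1 and 3 without DKO 3, and the 1 rise was lost without each array except DKO 2. Of 12 mesenchyme markers 1 rose, with mean levels of 10.80 to 10.84 in DKO and 10.80 to 10.83 in control. Of 8 macrophage and leukocyte markers 0 passed (4 had an unadjusted p under 0.05, against 12.8% of all genes, and 1 passed as a fall without DKO 1 and 4 with array weights), with mean levels of 8.19 to 8.26 in DKO and 8.33 to 8.36 in control. Of 6 mesothelium markers 2 rose, or 1 without any one of the controls or without DKO 3, with means of 9.09 to 9.14 in DKO and 8.89 to 8.91 in control. Of 6 cardiac muscle markers 1 rose, or 3 without DKO 2, with means of 8.73 to 8.96 in DKO and 8.43 to 8.55 in control. For 8 endothelium markers, 6 erythroid markers and 4 neural crest and neuron markers limma called 0. In each of these lists 2 had an unadjusted p under 0.05, against 12.8% of all genes. Fits in which 1 erythroid marker passed as a rise included those without DKO 2, with an intensity trend and with a second quantile normalization. With array weights 2 erythroid markers, 1 endothelium marker and 1 neural crest and neuron marker passed as rises. Endothelium markers had means of 9.77 to 9.93 in DKO and 9.67 to 9.73 in control, and erythroid markers 10.76 to 10.83 in DKO and 10.61 to 10.75 in control. The neural crest and neuron means were 7.88 to 8.05 in DKO and 7.84 to 8.10 in control. The part of these marker levels in the change of Jun was not tested.

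The targeted gene Hdac1 fell by 0.28 (SE 0.05, adjusted p = 0.0193), and its call was lost without any one of the controls, DKO 1 or DKO 3 (0.0517 to 0.112). Hdac2 stood at -0.04 (SE 0.06, adjusted p = 0.845). Whether their probes lie in the deleted parts was not determined here.

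Genes that act with or around AP-1 were read against the 2.41% of all genes that passed. Of 25 measured bZIP partners, such as the ATF, CREB, C/EBP and MAF factors that can dimerise with AP-1 proteins or share their elements, limma called 0, and 2 had an unadjusted p under 0.05, against 12.8% of all genes. Their median change was 0.05, with 17 above 0 and 8 below. The widest changes were in Cebpd (0.23, adjusted p = 0.223), Cebpb (0.17, adjusted p = 0.391) and Maff (0.16, adjusted p = 0.512). Of 19 measured kinases and factors upstream of AP-1, limma called 0, and 4 had an unadjusted p under 0.05, against 12.8% of all genes. Values did not overlap between the groups for 6 of the 19, against 18.8% of all genes. DKO was below in 5 and above in 1, against 10.4% and 8.36% of all genes. The call count became 1, higher in DKO, with an intensity trend, a second quantile normalization, median centring or without the dimmest 30% of genes, and with array weights 1 was higher and 2 were lower. The median there was -0.03. The JNK family kinase gene Mapk10 stood at -0.28 (adjusted p = 0.105), Map3k1, a kinase upstream of JNK, at 0.23 (adjusted p = 0.0526) and Map2k2, which encodes a kinase that activates ERK, at -0.17 (adjusted p = 0.265).

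Of 46 other immediate early genes 1 fell and 0 rose, which is 2.17% against 2.41% of all genes. The gene was Btg2, an antiproliferative gene induced by growth factors and by p53. Btg2 had log2 levels of 8.64, 8.64 and 8.47 in DKO, against 8.97, 9.02 and 8.86 in control. The groups did not overlap, and the change was -0.37 (SE 0.07, adjusted p = 0.0250). That call was lost without DKO 3 (adjusted p = 0.0769), control 1 (0.124) or control 2 (0.128). The count of 1 fall became 4 without DKO 2. Values did not overlap between the groups for 13 of the 46, with DKO below in 11 and above in 2, against 10.4% and 8.36% of all genes. The median change of the 46 was -0.03. Before adjustment, 13 of the 46 had p under 0.05, against 12.8% of all genes.

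Of 14 genes that feed back on ERK signalling or report it, 1 rose and 1 fell, or 14.3%, against 2.41% of all genes. Phlda1, which is induced by growth factors, had 9.86, 9.97 and 9.85 in DKO, against 9.65, 9.52 and 9.61 in control, a change of 0.30 (SE 0.06, adjusted p = 0.0330). Etv5, an ETS factor induced by FGF signalling in the lung tips, had 10.37, 10.59 and 10.54 in DKO, against 10.81, 10.81 and 10.89 in control, a change of -0.34 (SE 0.07, adjusted p = 0.0366). Both genes were separate between the groups, in opposite directions. Each call was lost without any one of the controls, DKO 1 or DKO 3 (adjusted p = 0.0592 to 0.154 for Phlda1 and 0.0646 to 0.171 for Etv5). With an intensity trend 3 of the 14 rose and 1 fell, and with a second quantile normalization 2 rose and 1 fell. With array weights 2 rose and 2 fell, and with the replicate block 0 rose and 1 fell. Before adjustment, 5 of the 14 had p under 0.05, against 12.8% of all genes. Values did not overlap between the groups for 8 of the 14, against 18.8% of all genes, with DKO above in 5 and below in 3. The median of the 14 was 0.07.

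Of 22 measured genes reported as AP-1 targets 1 fell and 0 rose, or 4.55%, against 2.41% of all genes. It was Ccnd1, which encodes cyclin D1 of the G1 phase and has many other regulators. Ccnd1 averaged 11.42 ± 0.12 in DKO and 11.76 ± 0.03 in control (SD, n = 3 each). No values overlapped, and the change was -0.34 (SE 0.07, adjusted p = 0.0355). The call was lost without any one of the controls, DKO 1 or DKO 3 (adjusted p = 0.0545 to 0.165), and without DKO 2 the count was 2 falls. Before adjustment, 5 of the 22 had p under 0.05, against 12.8% of all genes, and Ccnd1 was the only fall among these 5. Values did not overlap between the groups for 4 of the 22, against 18.8% of all genes. DKO was above in 3 and below in 1, against 8.36% and 10.4% of all genes. The median of the 22 was 0.02, with 12 above 0 and 10 below.

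Of 12 measured heat shock and handling genes limma called 0, and 1 had an unadjusted p under 0.05, against 12.8% of all genes. The call count became 1, higher in DKO, with an intensity trend, array weights, a second quantile normalization, median centring, probe averages or without the dimmest 30% of genes. The small heat shock protein gene Hspb1 stood at 0.25 (adjusted p = 0.0531), the endoplasmic reticulum chaperone gene Hspa5 at 0.14 (adjusted p = 0.482) and the co-chaperone gene Dnajb1 at -0.12 (adjusted p = 0.397). The mean log2 level of the 12 genes was 10.79 to 10.86 in DKO arrays and 10.80 to 10.86 in control arrays.

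**Figure D5:**
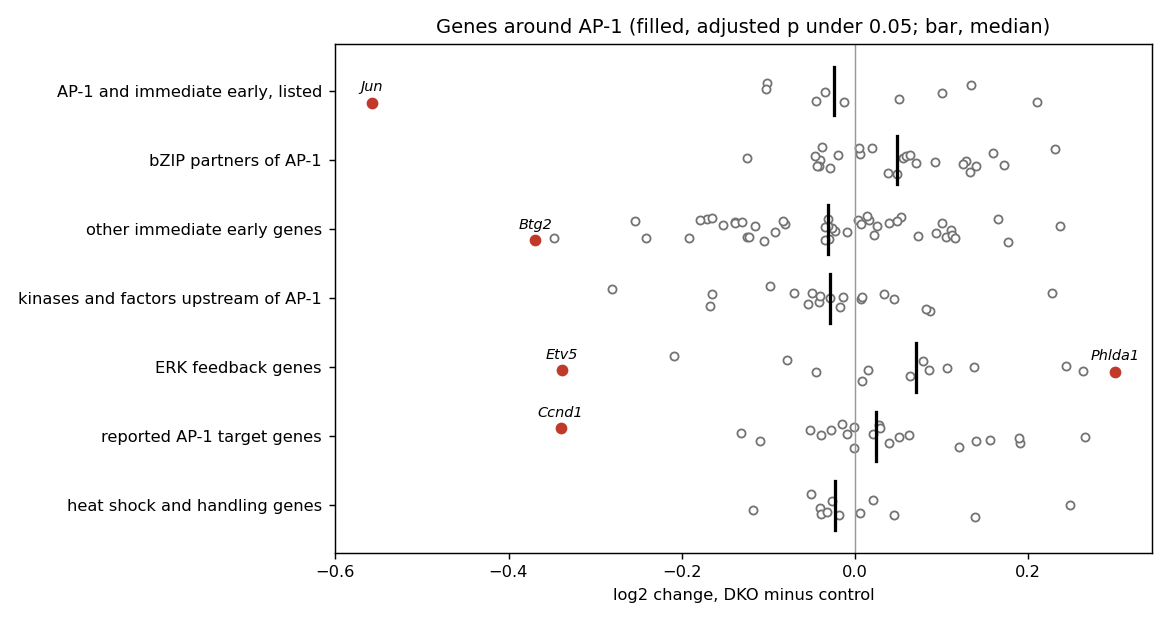
Log2 change (DKO minus control) of every measured gene in the listed set and in 6 lists of related genes, 1 point per gene and a bar at each median. Filled points passed the threshold: Jun, Btg2, Etv5 and Ccnd1 were lower and Phlda1 was higher in DKO. Points are spread vertically at random within a list for legibility.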

How the data were processed

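The authors deposited log2 expression values of 35556 probe sets for each of 6 Affymetrix mouse gene arrays. RMA, oligo and limma are named in the submitters' processing notes, without versions. RMA makes array distributions alike, so a change common to all genes cannot be seen. The deposited table does not state its log base, and base 2 was taken from RMA and from the range of values, 3.42 to 14.27. Array medians were 7.87 to 7.89, and the number of arrays limits the precision.

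Probes were named from the platform annotation, updated through Entrez identifiers against RefSeq (GRCm38.p6). A single gene was named for 21789 probes, several for 1621 and none here for 12146. The brightest probe was kept for the 999 genes with several, which left 19938 genes. No build is stated for the probes, so their coordinates are not given. Groups were taken from the sample titles.

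The test was that of the limma package (version 3.58.1, under R 4.3.3), two-sided at default settings, with group as the only term, and the script was tested on simulated data. The alternatives were the replicate block, an intensity trend, robust settings, array weights, a second quantile normalization, median centring, probe averages, all probes, no dim genes, and leaving out each array.

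The 10 genes and all lists were chosen with earlier results of these data known. Outside them the text names Hdac1, Hdac2, up to 4 called members of each list (the 3 widest changes where none was called) and the 4 genes most similar to the 2 listed genes of widest range. Sftpc and Krt19, the ends of the epithelial range, were chosen after their values were seen. Of 26, 46, 25, 14, 25 and 15 entries in the bZIP, immediate early, upstream, ERK, target and heat shock lists, those with a probe of their own were used.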

Additional observations from a re-analysis of the deposited data

How the results depend on the processing

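All 15 alternatives were run on 8 of the listed genes, and Fos and Fosl1 had no value without the dimmest 30% of genes. Jun kept its direction and its call under all 15, and Jund, Fosl2, Atf3, Egr1, Fos and Fosl1 kept their direction and were never called. Junb turned sign without DKO 2 and ranged from -0.027 to 0.10 over the fits without 1 array, and Fosb, close to 0, ranged from -0.097 to 0.056 there, with positive values without DKO 1 (0.056), DKO 3 (0.0043) or control 3 (0.00049). The cause was not tested. With array weights the listed genes called were 2, since Ier3 (0.21, adjusted p = 0.0210) passed beside Jun. The count over all genes was 725 with an intensity trend, 2003 with array weights and 208 with all 35556 probes tested, where more tests enter the adjustment, and it ran from 197 to 811 over the fits without 1 array. With the replicate number as a block it was 406, with Jun at an adjusted p of 0.00853. Deviations of same-numbered samples correlated at -0.06, 0.05 and 0.16 for numbers 1 to 3 over genes, and 3 of the 6 arrays correlated best with their own number, so the numbers were not taken as pairs. The alternatives for genes outside the 10 were run after their values were seen. With all probes tested, Btg2, Phlda1, Etv5, Ccnd1 and Hdac1 lost their calls (adjusted p = 0.0644 to 0.126), and with the replicate block so did Hdac1 (0.0507), Phlda1 (0.0809) and Ccnd1 (0.0702), while the smooth muscle falls numbered 3. With all probes tested, 0 smooth muscle and 0 mesothelium markers passed. Array weights called more members of most lists, such as 2 higher and 8 lower of the other immediate early genes. Dim probes could not be told from background, since the table holds no detection calls.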
